A study of Mus musculus with 4 samples.

Results

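The proteasome subunit genes were followed in hematopoietic stem and progenitor cells (HSPCs) of young and aged mice. The genes were every symbol of the deposited gene list made of Psm, a letter from a to g and a number, with at least 1 unique molecular identifier (UMI, a tag that marks 1 captured transcript) in each of the 4 pools. Of 28692 genes listed, 48 symbols matched and 47 were kept. The gene left out, Psmb11, the catalytic subunit of the proteasome of thymic epithelium, had 7 UMIs in aged pool A and 0 in the other pools. The lowest gene kept was Psma8, a core subunit known from the testis, with 311, 179, 286 and 329 UMIs in the 4 pools. Here and below, the values of the 4 pools are given in the order young A, young B, aged A and aged B.

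The proteasome degrades proteins that carry ubiquitin chains. Its core particle is a barrel of alpha rings (Psma genes) around beta rings (Psmb genes), and Psmb5, Psmb6 and Psmb7 carry the catalytic sites. Under interferon, and in immune cells, these subunits are exchanged for Psmb8, Psmb9 and Psmb10, which gives the immunoproteasome and changes the peptides offered to T cells on class I molecules. A regulatory particle, with a base of Psmc ATPases and a lid of Psmd subunits, binds and unfolds the substrates, and the Psme genes encode other activators. Blood stem cells are known for low protein synthesis and for their sensitivity to disturbed protein turnover.

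The cells were Lin-, Sca1+, cKit+ and Flt3- HSPCs, sorted from the bone marrow of C57BL/6-CD45.2 male mice. Young mice were 2 to 3 months old and aged mice 17 to 18 months. Young pool A held marrow of 2 mice and young pool B of 3, and aged pool A held marrow of 3 mice and aged pool B of 2. The A pools were processed on the HalioDX platform and the B pools on the TGML platform, so each platform held 1 pool of each age. The labels give no genotype or treatment besides age, and each pool was a single library, so that the spread between the 2 pools of an age includes the platform. Free-text notes attached to 2 pools, young B and aged A, state the opposite age, so titles and source names set the groups.

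After a filter on UMIs per cell, 5189, 2244, 3328 and 4154 cells remained in the 4 pools. These held 16399999 to 36446168 UMIs per pool, with a median of 5674 to 6719 UMIs per cell. Any pair of pools shared 10 to 29 cell barcodes. Of the genes behind the gate, Kit was at 71.7 to 164 CPM (UMIs of a gene scaled to equal pool totals), Ly6a (Sca1) at 164 to 355 CPM, and Flt3, against which cells were gated, ran from 2.403 CPM in aged pool B to 47.96 CPM in young pool A. Aged pool A stood apart through the plasma cell transcript Igha, at 499 CPM against 0.183 to 82.05 CPM in the other pools. The summed level of a list of 16 mature blood cell genes was 279, 697, 1379 and 539.5 CPM in the 4 pools. Its part in the results was not tested beyond leaving out cells with at least 2 of these genes. That step took out 381, 147, 1866 and 234 cells, so it removed far more of aged pool A than of the other pools. A strict list without Igha, Ighg2b, Jchain, Nkg7 and Hbb-bs took out 4, 9, 13 and 9 cells. Cells were also put in classes by counts of marker transcripts, none of which is a proteasome gene. A cell was called mitotic or replicating with at least 5 of 12 markers, and the remaining, non-cycling cells were called erythroid or neutrophil with at least 4 of 10 markers, interferon with at least 3 of 12 and HSC-marker with at least 5 of 10 markers such as Procr, Hlf and Mecom. The HSC list also holds Slamf1, and the study reports Procr and Slamf1 as raised in aged HSPCs. Slamf1 was at 10.3, 9.02, 42.5 and 45.5 CPM in the 4 pools. The effect of age on entry into the HSC-marker class was not tested. These classes rest on their markers alone, are not sorted populations, and had more UMIs per cell than the cells they were compared with in each pool. In such sums, fewer cells of a kind and less RNA per cell cannot be told apart.

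Promoter sequences were read from RefSeq on GRCm38.p6 for the members that moved together in interferon cells, together with Psmb5, the constitutive counterpart of Psmb8, which did not pass the test there. Windows from 250 bases before to 50 bases after the start site were found for 39 of the 47 members. Shown are the 150 bases before each start site, 5′ to 3′ on the gene's strand, and for Psme1 also the first 19 bases after it. Capitals mark TTCNNNGAA, a split palindrome, in Psmb8, the reverse complement of CCAAT in Psmb9, an interferon regulatory factor type motif (the run TTTC, any 2 bases, and TTTC again) in Psme1 and TGACNNNGC, the type bound by Nfe2l1, in Psmb5.
Psmb8 (chr17:34198045-34198194, plus strand): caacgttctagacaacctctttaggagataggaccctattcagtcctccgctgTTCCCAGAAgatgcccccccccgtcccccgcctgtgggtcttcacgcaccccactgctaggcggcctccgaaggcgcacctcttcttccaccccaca
Psmb9 (chr17:34187331-34187480, minus strand): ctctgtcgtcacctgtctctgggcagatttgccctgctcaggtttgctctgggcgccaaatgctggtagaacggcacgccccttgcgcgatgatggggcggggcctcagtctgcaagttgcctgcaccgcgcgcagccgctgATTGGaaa
Psme1 (chr14:55578344-55578512, plus strand): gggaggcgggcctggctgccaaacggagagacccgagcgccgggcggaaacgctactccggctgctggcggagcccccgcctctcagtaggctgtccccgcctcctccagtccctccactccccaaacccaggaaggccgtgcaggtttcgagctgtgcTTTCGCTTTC
Psmb5 (chr14:54617996-54618145, minus strand): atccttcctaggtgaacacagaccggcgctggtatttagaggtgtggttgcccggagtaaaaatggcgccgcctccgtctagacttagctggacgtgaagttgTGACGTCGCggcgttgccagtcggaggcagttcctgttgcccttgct
The capitals lie 97 to 89 bases before the start site in Psmb8, 8 to 4 bases before it in Psmb9, 10 to 19 bases into the transcript in Psme1 and 47 to 39 bases before the start in Psmb5. Over both strands of the full windows, the interferon regulatory factor type motif was found in 5 of 39 members (12.8%) and in 3.99% of 27025 genes with a window, namely in Psmb3, Psmd4, Psmd9, Psme1 and Psmg4. TTCNNNGAA was found in 3 members (7.69% against 9.55% of all genes), Psmb8, Psmd2 and Psmg1. TGACNNNGC was found in 6 (15.4% against 13.99%), CCAAT in 13 (33.3% against 41.1%) and GGGCGG, an Sp1-type motif, in 23 (58.97% against 38.2%). A match describes the letters of the window only, and motifs may overlap. In the GENCODE annotation of GRCm38, Psmb9 (chr17:34181987-34187764, minus strand) and the peptide transporter gene Tap1 (plus strand) lie head to head. Their 5′ ends overlap, with start sites 211 bases apart. Psmb8 (chr17:34197721-34201454, plus strand) starts 9957 bases from Psmb9, in the class II region of chromosome 17. Psme1 (chr14:55578123-55581529) and Psme2 (chr14:55587441-55591113) are neighbours on chromosome 14, with start sites 12990 bases apart. The RefSeq start sites used for Psmb8, Psmb9 and Psme1 lie within these longer GENCODE genes.

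The members made up 0.821%, 0.878%, 0.729% and 0.857% of all UMIs in the 4 pools. Both B pools were above both A pools, and the ages overlapped. Levels below are CPM scaled by TMM, edgeR's correction for library composition, and since a 3′ kit counts each transcript once, they were not divided by transcript length. The 7 alpha genes held 25.5 to 26.6% of the members' UMIs over the pools, the 7 constitutive beta genes 23.3 to 24.3%, the 3 immunoproteasome genes 10.3 to 12.2%, the 8 lid genes 11.4 to 11.96%, the 6 ATPases 7.66 to 8.66% and Psme1 and Psme2 together 6.74 to 8.12%. The highest member was an immunoproteasome gene, Psmb8, at 508, 619.9, 358 and 644 CPM in the 4 pools. Psma7 (mean of the 4 pools 475 CPM), Psmb1 (464) and Psme1 (440.4) followed. The pools spread more widely than these 4 means differ, and in aged pool A Psma7 was the highest of them. At the low end stood the inhibitor Psmf1 (39.8 CPM), the nuclear activator Psme4 (14.1 CPM) and Psma8 (10.7 CPM). The ATPases lay between 98.9 and 145 CPM and the lid genes between 78.3 and 200.04 CPM. Psmb8 had a UMI in 86.4 to 96.4% of the cells of a pool and Psma8 in 5.42 to 7.602%, and the median member in 48.3 to 64.7%. Psma2, Psmd1 and Psmg3 overlap another listed gene on their strand, and Psme2 has a near copy, Psme2b, so that the counts of these members could be affected.

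**Figure D1:**
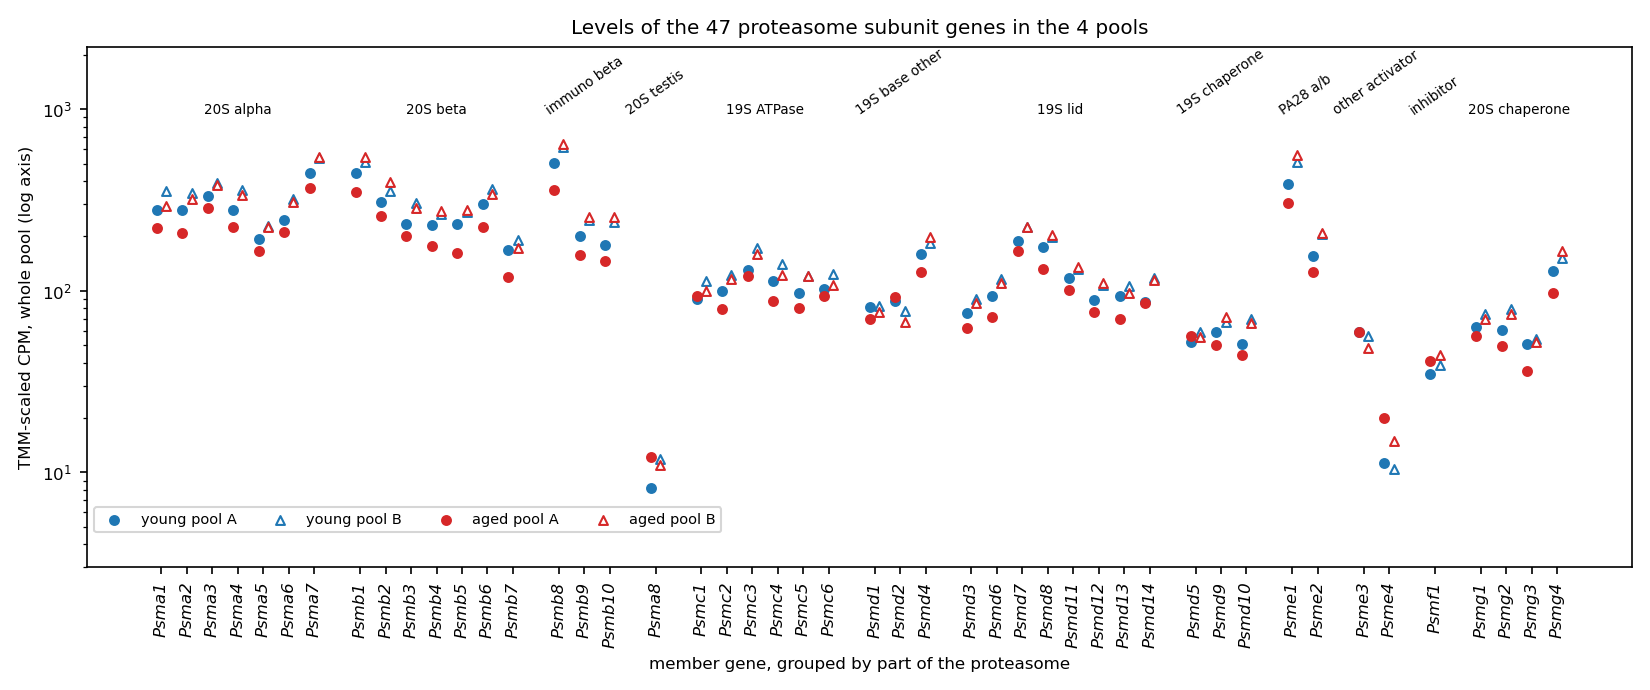
TMM-scaled CPM (log axis) of the 47 members in whole pools, grouped by their part of the proteasome, with young pools in blue, aged pools in red, A pools as filled circles and B pools as open triangles. Most members are lowest in aged pool A, and Psme4 is the member for which both aged pools (14.9 CPM or more) sit above both young pools by the largest fold.

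Whether aging changed the members was asked first in whole pools. No member passed the test: 0 of 47 were called by edgeR (quasi-likelihood test with platform as a block, Benjamini-Hochberg adjusted p under 0.05), where 2.03% of 13555 genes were (1.6% higher). At an unadjusted p under 0.05 edgeR named 1 member, Psme4, and DESeq2 called 0 at the adjusted threshold. A count of 1 in 47 is no more than the unadjusted threshold passes where nothing differs. The same holds for the single members counted this way below. The log2 fold changes, aged against young, were below 0 for 43 members and above 0 for 4, with a median of -0.13 against 0.01 over all genes. The lean came mostly from platform A. On platform A, 41 of 47 members were lower in the aged pool, with a median difference of -0.28, and on platform B 28 were lower, with a median of -0.05. Of all genes, 50.8% were higher in the aged pool on platform A and 51.9% on platform B. In reads per cell, the aged pool was sequenced deeper on platform A and the young pool on platform B. Median UMIs per kept cell ran the other way, at 6075, 6284, 5674 and 6719 in the 4 pools. Read depth, UMIs per cell and age therefore cannot be told apart within a platform. Without aged pool A the median of the fitted fold changes turned to 0.11 and without young pool B to 0.01. These fits with 1 pool fewer had no platform block, so platform and age are mixed in them.

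Among the catalytic genes of the core, Psmb5 stood at 232, 273, 160.5 and 278 CPM in the 4 pools, Psmb6 at 299, 362, 224 and 340.2 CPM and Psmb7 at 167, 191, 119 and 172 CPM. For each the aged pool was the lower one on platform A, and on platform B Psmb5 was marginally higher and the other two lower, so that ages overlapped. Psmb7 had the lowest log2 fold change of all members, -0.32 ± 0.19 (SE) with an adjusted p of 0.519 (edgeR, Benjamini-Hochberg). The alpha subunit Psma1 followed, at 280.04, 353, 220.3 and 292 CPM and a log2 fold change of -0.31 ± 0.19 (SE), and then the ATPase Psmc4 at 114, 139.6, 87.4 and 122 CPM and -0.29 ± 0.17 (SE). Both were lower in the aged pool of either platform, yet aged pool B lay above young pool A. The adjusted p was 0.534 for Psma1 and 0.514 for Psmc4 (edgeR, Benjamini-Hochberg).

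The immunoproteasome genes overlapped between the ages as well. Psmb9 was at 199, 246, 158 and 255 CPM and Psmb10 at 178, 239.5, 145 and 255 CPM, and both, like Psmb8, were lower in the aged pool on platform A and higher on platform B. Their log2 fold changes were -0.22 ± 0.24 (SE) for Psmb8, -0.14 ± 0.20 (SE) for Psmb9 and -0.10 ± 0.20 (SE) for Psmb10, with adjusted p values of 0.742, 0.808 and 0.867 (edgeR, Benjamini-Hochberg). Psme1 and Psme2 encode the ring that opens the core for peptides. Psme1 was at 386, 514, 303 and 559 CPM and Psme2 at 156, 207, 127 and 207 CPM, with log2 fold changes of -0.11 ± 0.23 (SE) and -0.14 ± 0.19 (SE). Neither passed (adjusted p 0.871 and 0.785, edgeR, Benjamini-Hochberg).

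Psme4, which encodes the large activator PA200 of nuclear proteasomes, had the largest positive log2 fold change. It was at 11.2, 10.4, 19.8 and 14.9 CPM in the 4 pools, so that both aged pools were above both young pools. Its log2 fold change was 0.67 ± 0.19 (SE) with an adjusted p of 0.178, at an unadjusted p of 0.0157 (edgeR, Benjamini-Hochberg), and over the alternatives the log2 fold change ranged from 0.46 to 0.87 and the adjusted p was 0.129 or more. Psme4 was low, with a UMI in 6.51 to 12.7% of cells. The same order held in non-cycling cells, with 10.6, 10, 20.1 and 15.02 CPM and a log2 fold change of 0.76 ± 0.20 (SE) with an adjusted p of 0.143, and in HSC-marker cells, with 10.5, 11.2, 19.9 and 14.8 CPM and 0.69 ± 0.25 (SE) with an adjusted p of 0.417 (edgeR, Benjamini-Hochberg). These comparisons share cells and are not independent. Psmf1, an inhibitor of the core, was likewise higher in the aged pool of both platforms, at 34.6, 39.2, 41.1 and 44.2 CPM and a log2 fold change of 0.21 ± 0.15 (SE) with an adjusted p of 0.612 (edgeR, Benjamini-Hochberg). Psma8 was higher in the aged pool on platform A and lower on platform B, at 8.16, 11.8, 12.1 and 10.9 CPM and a log2 fold change of 0.23 ± 0.24 (SE) with an adjusted p of 0.734 (edgeR, Benjamini-Hochberg).

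**Figure D2:**
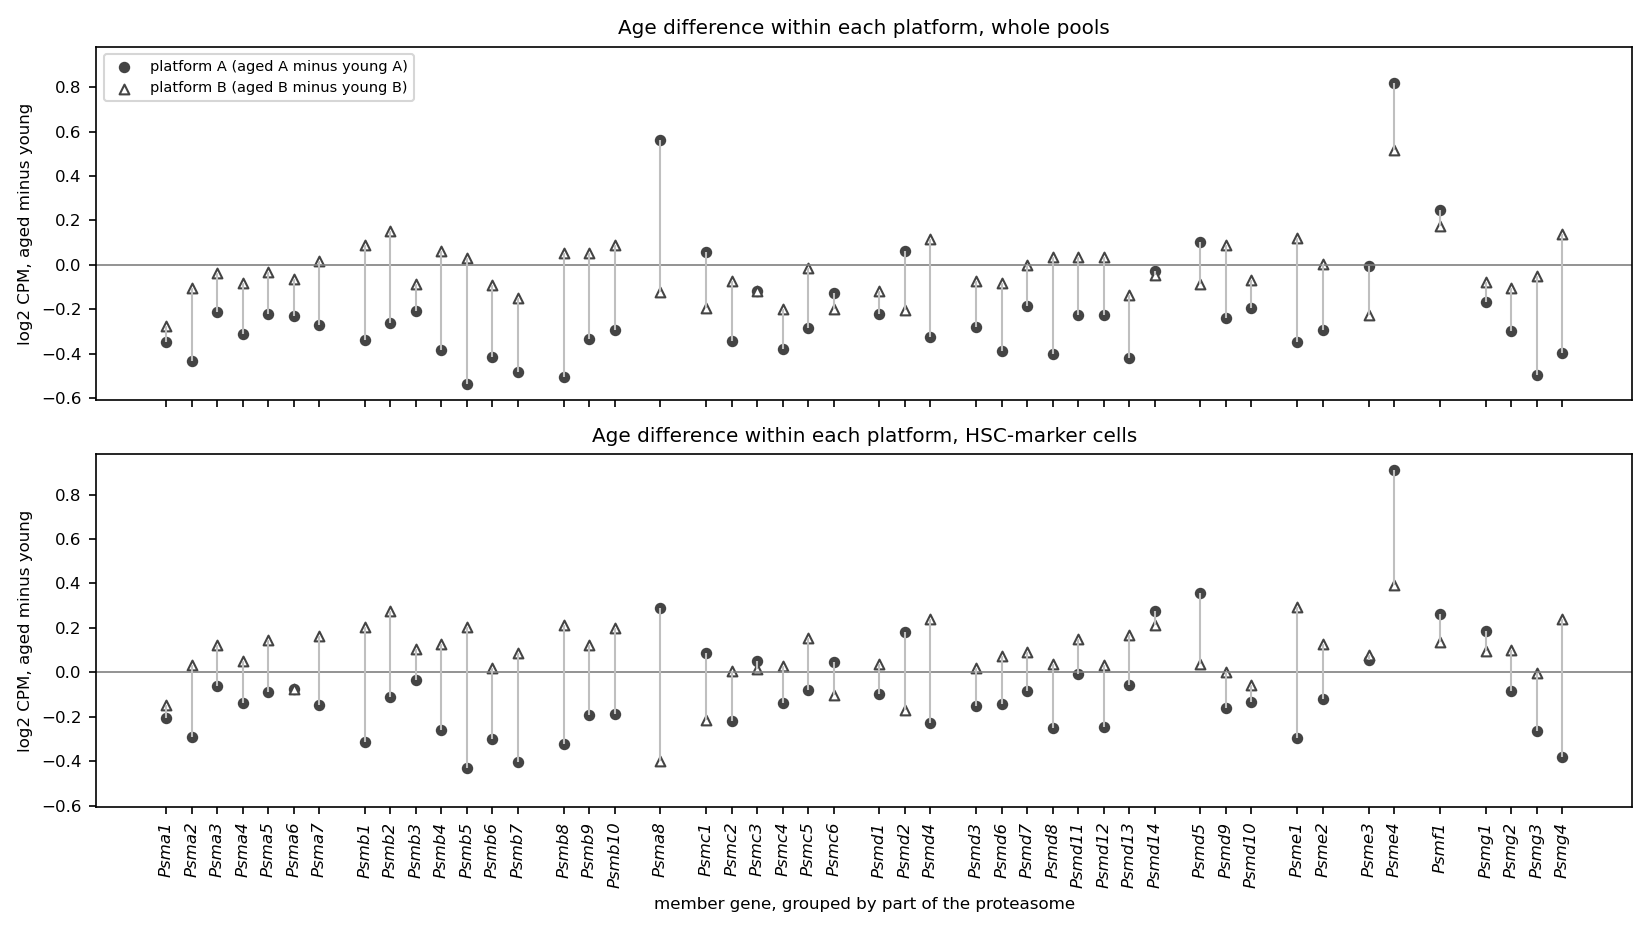
Difference in log2 CPM between the aged and the young pool of platform A (filled circles) and of platform B (open triangles) for each member, in whole pools (upper) and in HSC-marker cells (lower). In HSC-marker cells 36 of 47 circles lie below 0 and 39 of 47 triangles above it, and Psme4 is above 0 on both platforms in both panels. Of all genes in that class, 50.7% were above 0 on platform A and 53% on platform B.

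The pools differed in makeup, with 21.6%, 18%, 9.89% and 12.9% cycling cells and 19.8%, 16.3%, 54.5% and 52.99% HSC-marker cells in the 4 pools (the part of this makeup in the whole-pool values was not tested). The HSC-marker shares rest in part on Procr and Slamf1, which the study reports as raised with age. The comparison was repeated within cell classes. In non-cycling cells edgeR again called 0 of 47 members (1 at an unadjusted p under 0.05, DESeq2 0 at the adjusted threshold), against 2.74% of 13242 genes (1.98% higher), and 42 of 47 log2 fold changes were below 0, with a median of -0.09 against 0.01 over all genes. The lowest was that of Psmg3, a chaperone of core assembly, at 46.6, 50.6, 34.1 and 46.4 CPM and -0.29 ± 0.17 (SE) with an adjusted p of 0.528 (edgeR, Benjamini-Hochberg). Psma1 and Psmb7 followed, at 256, 322, 207 and 270 CPM and at 148, 168, 109 and 156 CPM, and for these the ages overlapped, whereas for Psmg3 both aged pools were below both young pools, with aged pool B close to young pool A. Psma8, at 8.85, 11.2, 12.1 and 11.2 CPM, and Psmf1, at 34.3, 38.3, 42.1 and 43.7 CPM, had log2 fold changes of 0.23 ± 0.21 (SE) and 0.24 ± 0.16 (SE). In HSC-marker cells the lean was smaller, with 25 below 0 and 22 above, a median of -0.03 against 0.02 over all genes, and 0 calls by edgeR and by DESeq2 (1 member at an unadjusted p under 0.05 by edgeR; 0.911% of 12178 genes called, 0.739% higher). The members' share of UMIs in this class was 0.726%, 0.761%, 0.695% and 0.802% in the 4 pools. On platform A 36 members were lower in aged HSC-marker cells, with a median difference of -0.13, whereas on platform B 39 were higher, with a median of 0.09. Of all genes, 50.7% were higher in this class on platform A and 53% on platform B. Psmd14, the lid enzyme that removes ubiquitin chains from substrates, was higher with age on both platforms, at 65.96, 87.01, 79.9 and 101 CPM and 0.25 ± 0.17 (SE) with an adjusted p of 0.728, and Psma1 lower on both, at 233, 282, 203 and 255 CPM and -0.18 ± 0.19 (SE) with an adjusted p of 0.8499 (edgeR, Benjamini-Hochberg). Psmd5, a chaperone of the base, was at 45.1, 50.8, 57.9 and 52.2 CPM, with a log2 fold change of 0.20 ± 0.18 (SE). Psmb7, at 133, 141, 101 and 149 CPM, and Psmb6, at 264, 318, 214 and 323 CPM, with log2 fold changes of -0.16 ± 0.20 (SE) and -0.14 ± 0.21 (SE), were lower on platform A and higher on platform B. None of these passed the test.

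The exchange of catalytic subunits was read as the ratio of UMIs of each immunoproteasome gene to the constitutive gene whose place its product takes. Both genes of a pair come from the same library, so the ratio does not depend on library scaling. In non-cycling cells Psmb9/Psmb6 was 0.634, 0.651, 0.708 and 0.727 in the 4 pools, with both aged pools above both young pools. The 95% counting intervals of these 4 ratios ran from 0.611 to 0.658, 0.618 to 0.685, 0.676 to 0.741 and 0.703 to 0.752, so that the middle intervals overlap. Psmb10/Psmb7 was 1.19, 1.42, 1.37 and 1.67, and Psmb8/Psmb5 was 2.26, 2.35, 2.296 and 2.39. All 3 ratios were higher in the aged pool of each platform, by 1.12 and 1.12 times for Psmb9/Psmb6, 1.15 and 1.17 times for Psmb10/Psmb7 and 1.02 and 1.02 times for Psmb8/Psmb5. The same order held in HSC-marker cells, where Psmb9/Psmb6 was 0.6500, 0.698, 0.702 and 0.7497 and Psmb10/Psmb7 was 1.29, 1.601, 1.497 and 1.73. In the non-cycling cells outside the HSC-marker class, Psmb8/Psmb5 was instead lower in the aged pool of each platform, at 0.928 and 0.987 times the young value. There Psmb9/Psmb6 was at 1.14 and 1.07 times and Psmb10/Psmb7 at 1.01 and 1.12 times the young value. With 2 pools an age the exact unpaired permutation test cannot give a p below 0.333. A test paired by platform has fewer arrangements still, so these ratios are given as values. In mitotic cells Psmb10/Psmb7, at 0.784, 0.838, 0.607 and 0.815, and Psmb8/Psmb5, at 1.93, 2.05, 1.84 and 1.94, were lower in the aged pool of both platforms, while Psmb9/Psmb6, at 0.735, 0.727, 0.705 and 0.823, was lower on platform A and higher on platform B. A ratio shows unequal levels of the transcripts, not of the proteins. Psme1/Psme2, which pairs 2 subunits of 1 ring, was 2.75, 2.73, 2.51 and 2.88 in non-cycling cells, lower with age on platform A and higher on platform B.

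**Figure D3:**
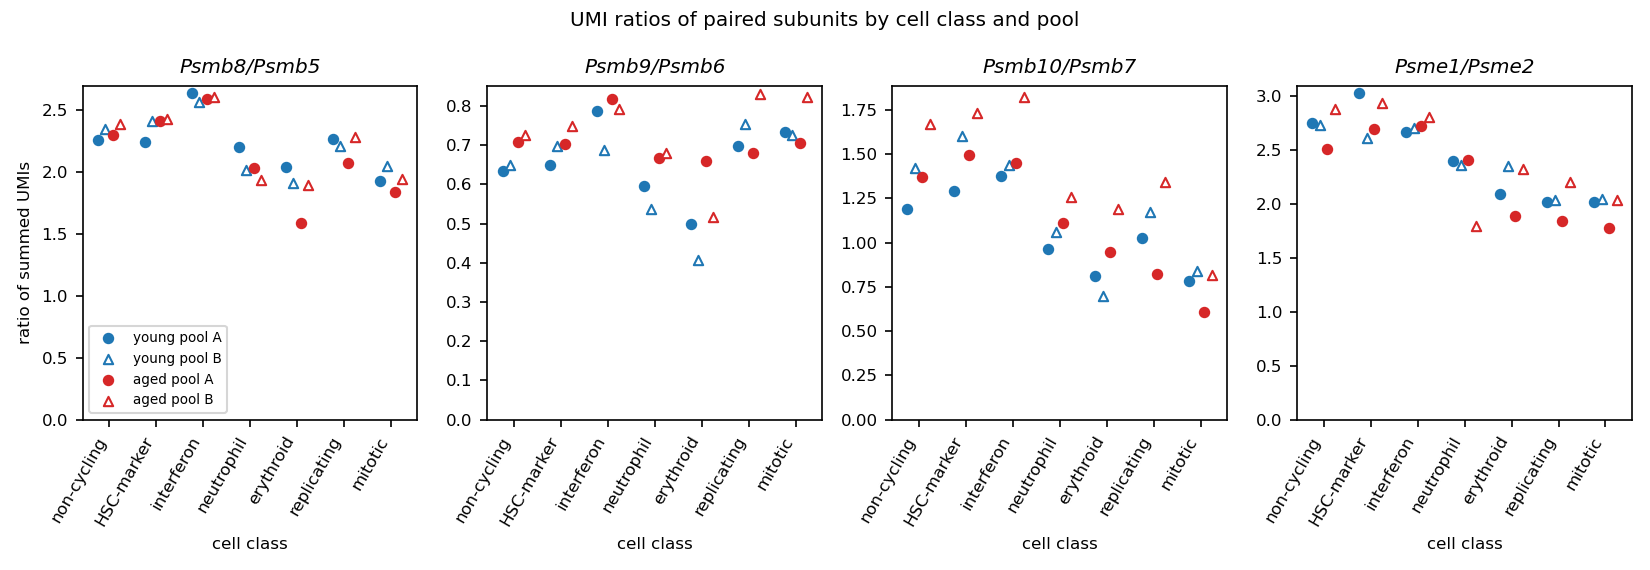
Ratio of summed UMIs of Psmb8 to Psmb5, Psmb9 to Psmb6, Psmb10 to Psmb7 and Psme1 to Psme2 in 7 cell classes, with young pools in blue, aged pools in red, A pools as filled circles and B pools as open triangles. Psmb10/Psmb7 runs from at least 1.19 in non-cycling cells down to at most 0.838 in mitotic cells in these pools.

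Larger differences lay between cycling and non-cycling cells of the same pool. In mitotic cells (630, 207, 173 and 304 cells in the 4 pools) the members made up 0.926%, 0.991%, 0.8501% and 1.03% of UMIs, against 0.771%, 0.826%, 0.705% and 0.8199% in non-cycling cells, so each pool was higher in its mitotic cells. edgeR, with pool as a block, called 40 of 47 members higher and 2 lower (Benjamini-Hochberg adjusted p under 0.05), where 25.6% of 11870 genes were called higher and 24.3% lower. The median log2 fold change of the members was 0.36 against -0.02 over all genes, and within single pools it lay between 0.33 and 0.39. All 7 alpha genes, 6 of 7 constitutive beta genes, all 6 ATPases, the 3 other base genes, all 8 lid genes, the 3 base chaperones and 3 of 4 core chaperones rose. The 5 members not called were Psma8, Psmb1, Psmb10, Psme4 and Psmf1. The log2 fold changes ran from 0.24 to 0.47 in the alpha ring, from 0.38 to 0.61 among the ATPases and from 0.19 to 0.88 in the lid. Mitotic cells were deeper, with median UMIs of 10503 to 12629 over the pools against 5485 to 6356 in non-cycling cells, and with classes called on cells thinned to 3000 UMIs 24 members were called higher and 3 lower. Without the pool block 3 were called. Here and in the class comparisons below, the shares of all genes called under such alternatives are not given. These counts therefore do not show whether a shift was particular to the members.

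Psmd13, a structural subunit of the lid, rose most, from 77, 88.2, 63.1 and 82.6 CPM in non-cycling to 130.4, 162, 112 and 170.4 CPM in mitotic cells in the 4 pools. The 2 classes did not overlap, and the log2 fold change was 0.88 ± 0.07 (SE) with an adjusted p of 5.20e-07 (edgeR, Benjamini-Hochberg). The catalytic gene Psmb7 rose from 145, 166, 108 and 155 to 221, 273, 177 and 269 CPM, a log2 fold change of 0.71 ± 0.06 (SE) with an adjusted p of 1.22e-06 (edgeR, Benjamini-Hochberg). Psmg2, which with Psmg1 chaperones the alpha ring, rose from 52.1, 67.4, 44.7 and 65.7 to 75.04, 108, 77.4 and 112 CPM, by a log2 fold change of 0.68 ± 0.07 (SE) with an adjusted p of 6.47e-06 (edgeR, Benjamini-Hochberg). The other catalytic genes rose in each pool, Psmb5 from 207, 249.7, 153 and 262 to 290.2, 332, 195 and 363 CPM, by 0.43 on the log2 scale, and Psmb6 from 274, 341, 217 and 324 to 364, 442, 278 and 428 CPM, by 0.39. Of their immunoproteasome counterparts Psmb9 rose by 0.53, from 174, 222, 153 and 236 to 268, 321, 196 and 352 CPM, and Psmb8 by 0.17, from 467, 586, 351 and 625 to 560.4, 679, 359 and 705 CPM, both in each pool. Psmb10, at 173, 229, 108 and 219 CPM in mitotic against 173, 236, 148 and 258 CPM in non-cycling cells, had a log2 fold change of -0.17 ± 0.08 (SE) with an adjusted p of 0.0765, which did not pass (edgeR, Benjamini-Hochberg). With classes called on thinned cells the log2 fold change of Psmb8 was 0.01 and that of Psmb10 -0.29, the latter then called lower.

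Psme1 and Psmg4 fell in mitotic cells. Psme1 was at 350.1, 475, 246 and 505 CPM in mitotic against 384, 516, 306 and 564 CPM in non-cycling cells in the 4 pools, lower in each pool, at a log2 fold change of -0.18 ± 0.05 (SE) with an adjusted p of 0.0162 (edgeR, Benjamini-Hochberg). Its partner Psme2 rose in each pool, from 139.6, 189, 122 and 196 to 174, 233, 139 and 248 CPM, by a log2 fold change of 0.29 ± 0.06 (SE) with an adjusted p of 0.00168 (edgeR, Benjamini-Hochberg). Accordingly Psme1/Psme2 was 0.707 to 0.748 times its non-cycling value in the 4 pools, and 0.732 to 0.765 times in replicating cells. Over the 15 alternatives the mitotic log2 fold change of Psme2 ranged from 0.01 to 0.42, and its call was kept in 12. Psmg4, a chaperone of the core, was at 112, 129, 89.5 and 149.7 against 128, 153, 97.3 and 168 CPM, at a log2 fold change of -0.18 ± 0.06 (SE) with an adjusted p of 0.0278 (edgeR, Benjamini-Hochberg). With a pool left out, the call for Psmg4 was lost without either young pool or aged pool B, and that for Psme1 without young pool A or aged pool A. Over all 15 alternatives the call was kept in 9 for Psmg4 and in 11 for Psme1.

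Replicating cells (491, 197, 156 and 232 cells) were compared with the same non-cycling cells as the mitotic cells, so the comparisons are not independent. edgeR called 33 members higher and 0 lower (Benjamini-Hochberg adjusted p under 0.05), against 46.1% of 11776 genes called, 21.7% higher and 24.5% lower. The median log2 fold change was 0.30 against -0.07 over all genes. Psme3, the nuclear activator PA28 gamma, rose most, from 50.7, 50.9, 51.8 and 44.7 CPM to 80.9, 84.5, 98.9 and 75.9 CPM in the 4 pools, by 0.77 ± 0.08 (SE) with an adjusted p of 1.53e-07 (edgeR, Benjamini-Hochberg). Psmg2 rose from 51.1, 69.6, 43.6 and 67.7 to 83.1, 114, 78.3 and 103 CPM and Psmc4 from 94.3, 122, 79.2 and 113 to 155, 198, 119 and 179 CPM. For all of these each pool moved the same way, and for Psme3 the classes did not overlap. The log2 fold changes were 0.70 ± 0.07 (SE) for Psmg2 and 0.67 ± 0.07 (SE) for Psmc4, with adjusted p values of 3.03e-07 and 1.65e-07 (edgeR, Benjamini-Hochberg). The catalytic genes also rose, Psmb5 from 203, 258, 149 and 269.7 to 267, 332, 211 and 315 CPM, by 0.37 on the log2 scale, Psmb6 from 269, 353, 211 and 334 to 315, 383, 251 and 361 CPM, by 0.18, and Psmb7 from 142, 172, 106 and 159.5 to 191, 229.8, 186 and 196 CPM, by 0.48. Of the immune set Psmb8 rose from 458, 606, 343 and 644 to 606, 735, 438 and 719 CPM, by 0.30, Psmb9 from 170.4, 229, 149.6 and 243 to 219.9, 289, 171 and 299.5 CPM, by 0.30, and Psme2 from 137, 195, 119 and 202 to 204, 270.1, 182 and 252 CPM, by 0.49. Psmb10, at 196, 269, 153 and 263 against 169, 244, 145 and 266 CPM, and Psme1, at 413, 548, 334 and 555 against 377, 533, 299 and 581 CPM, had log2 fold changes of 0.11 ± 0.07 (SE) and 0.06 ± 0.07 (SE) and did not pass. Of the base chaperones Psmd10 was at 42.8, 58.3, 43.01 and 57.98 against 48.8, 73.4, 41.9 and 67.2 CPM, at a log2 fold change of -0.19 ± 0.08 (SE) with an adjusted p of 0.0681 (edgeR, Benjamini-Hochberg). Psma8, at 6.06, 17, 7.06 and 5.84 against 8.54, 11.5, 11.7 and 11.5 CPM, and Psmf1, at 34.4, 40.3, 35.9 and 38.4 against 33.1, 39.2, 40.9 and 44.7 CPM and a log2 fold change of -0.07 ± 0.09 (SE), did not pass either. Without the pool block 2 members were called.

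**Figure D4:**
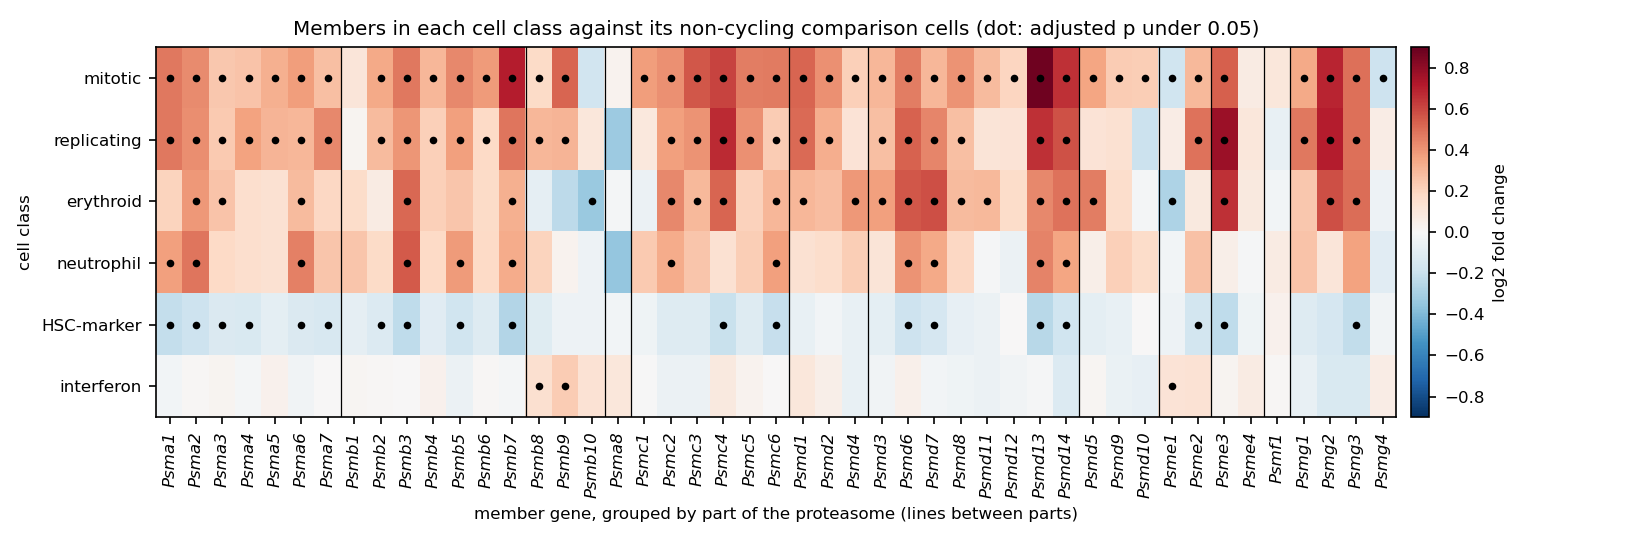
Log2 fold change (color scale) of each member in 6 cell classes, mitotic and replicating cells against non-cycling cells and the other classes against the other non-cycling cells, with a black dot where edgeR's Benjamini-Hochberg adjusted p was under 0.05 and lines between the parts of the proteasome. Dots for higher values fill most of the mitotic (40) and replicating (33) rows, the HSC-marker row has 19 dots, all lower, and the interferon row has 3.

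Among non-cycling cells, erythroid cells (164, 47, 77 and 57 cells) had 22 members higher and 2 lower than the other non-cycling cells (edgeR, Benjamini-Hochberg adjusted p under 0.05), where 11% of 11403 genes were called higher and 12.4% lower. The median log2 fold change was 0.25 against -0.06 over all genes. The regulatory particle led, with 7 of 8 lid genes and 4 of 6 ATPases called higher, against 3 of 7 alpha and 2 of 7 constitutive beta genes. Psme3 had the largest log2 fold change, 0.66 ± 0.13 (SE) with an adjusted p of 9.38e-05, with 76.9, 98.4, 91.8 and 43.9 CPM in erythroid and 50.2, 48.3, 51.4 and 44.2 CPM in other cells (edgeR, Benjamini-Hochberg). It was higher in 3 pools and level in aged pool B. The lid subunit Psmd7 was at 251, 283, 229 and 343 against 165, 209.6, 152 and 215 CPM and Psmg2 at 73.9, 113, 64.1 and 92.1 against 50.7, 66.8, 43.6 and 66.4 CPM, higher in each pool, with log2 fold changes of 0.58 ± 0.10 (SE) and 0.58 ± 0.11 (SE). Their adjusted p values were 1.14e-05 and 0.000121 (edgeR, Benjamini-Hochberg).

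None of the immunoproteasome genes was called higher in erythroid cells, and neither were the activator genes Psme1 and Psme2. Psmb10 fell, at 159.6, 143, 118 and 222 CPM in erythroid against 173, 245, 147 and 264 CPM in other cells, as did Psme1, at 364, 364, 274 and 446 against 383, 531, 304 and 577 CPM. Each was lower in erythroid cells of each pool, and the log2 fold changes were -0.34 ± 0.11 (SE) with an adjusted p of 0.0191 for Psmb10 and -0.28 ± 0.09 (SE) with an adjusted p of 0.0269 for Psme1 (edgeR, Benjamini-Hochberg). Psmb9 was at 157, 157, 154 and 193 against 174, 229, 152 and 241 CPM and Psmb8 at 486, 517, 345 and 563 against 463, 600.4, 347 and 638 CPM. Their log2 fold changes of -0.23 ± 0.11 (SE) with an adjusted p of 0.109 and -0.08 ± 0.09 (SE) with an adjusted p of 0.564 did not pass (edgeR, Benjamini-Hochberg). Psme2, the partner of Psme1, was at 174, 155, 146 and 193 against 137, 194, 119.9 and 199.8 CPM, higher in both A pools, and its log2 fold change was 0.09 ± 0.11 (SE) with an adjusted p of 0.613 (edgeR, Benjamini-Hochberg), which ranged from -0.01 to 0.36 over the alternatives with an adjusted p as low as 0.0184. The constitutive Psmb5, Psmb6 and Psmb7 were at 238, 271, 217 and 297 against 204, 254, 149 and 266 CPM, 315, 386, 234 and 372 against 271, 346, 214 and 329 CPM and 197, 204, 125 and 186 against 142, 168, 107 and 157 CPM, with log2 fold changes of 0.25 ± 0.10 (SE), 0.17 ± 0.09 (SE) and 0.32 ± 0.10 (SE), and adjusted p values of 0.0649, 0.191 and 0.0155 (edgeR, Benjamini-Hochberg). All 3 ratios of immunoproteasome to constitutive UMIs were lower in erythroid cells in each of the 4 pools, Psmb10/Psmb7 by the widest margin, at 0.479 to 0.709 times the value of the other cells. These classes were small, and the calls for Psmb10 and Psme1 were lost without young pool B or aged pool A, that for Psme1 also without aged pool B. Over all 15 alternatives the call was kept in 9 for Psmb10, in 8 for Psme1 and in 11 for Psmb7.

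Neutrophil cells (300, 103, 157 and 38 cells) had 12 members higher and 0 lower, against 8.18% and 6.16% of 11463 genes (edgeR, Benjamini-Hochberg adjusted p under 0.05). The median log2 fold change was 0.18 against -0.03 over all genes. The beta subunit Psmb3 led at 275, 387, 224 and 504 against 193, 270.4, 181 and 267 CPM, followed by the alpha subunits Psma2, at 331, 433, 238 and 474 against 240.05, 308, 189 and 298 CPM, and Psma6, at 268, 399.7, 274 and 428 against 213, 296, 194 and 286 CPM. Each rose in each pool, by log2 fold changes of 0.55 ± 0.10 (SE), 0.49 ± 0.09 (SE) and 0.46 ± 0.09 (SE) with adjusted p values of 0.00103, 0.00114 and 0.00156 (edgeR, Benjamini-Hochberg). Of the 3 immunoproteasome genes 0 were called. Psma8, at 5.55, 11.6, 10.5 and 6.58 against 8.86, 11.1, 11.96 and 11.2 CPM, Psmg4, at 133, 126, 89.99 and 148 against 125, 156, 96.4 and 169 CPM, and the lid subunit Psmd12, at 78.1, 82.5, 83.7 and 112 against 83.6, 105, 74.05 and 106 CPM, had log2 fold changes of -0.35 ± 0.25 (SE), -0.10 ± 0.10 (SE) and -0.05 ± 0.11 (SE) and did not pass. The 3 ratios of immunoproteasome to constitutive UMIs were lower than in the other cells in each pool, Psmb10/Psmb7 at 0.727 to 0.798 times. The count fell to 3 without young pool A and to 7 without young pool B, and stood at 17 without aged pool B, whose neutrophil class held 38 cells.

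HSC-marker cells (1026, 366, 1815 and 2201 cells) went the opposite way. edgeR called 0 members higher and 19 lower than in the other non-cycling cells (Benjamini-Hochberg adjusted p under 0.05), where 20.5% of 11947 genes were called, 10.7% lower and 9.75% higher. The median log2 fold change was -0.11 against 0.01 over all genes, and in single pools 34 to 43 of the 47 members were lower. Of all genes, 44.9% to 54.4% were higher in single pools. The called genes were 6 of 7 alpha genes, 4 of 7 constitutive beta genes, 4 lid genes, 2 ATPases, Psme2, Psme3 and Psmg3, and 0 of the 3 immunoproteasome genes. Psmb7 fell most, to 132, 139.8, 100.4 and 149 CPM from 152, 181, 126 and 171 CPM in the 4 pools, followed by Psmd13, at 64.3, 71.1, 61.98 and 80.2 against 82.7, 96.8, 66.4 and 89.3 CPM, and Psme3, at 49.5, 38.5, 51.5 and 40.7 against 53.2, 54.5, 57.4 and 49.9 CPM. Each was lower in each pool, with log2 fold changes of -0.27 ± 0.05 (SE), -0.25 ± 0.06 (SE) and -0.23 ± 0.06 (SE) and adjusted p values of 0.000533, 0.005001 and 0.0143 (edgeR, Benjamini-Hochberg). Psmb10/Psmb7 was higher in HSC-marker cells in each pool, at 1.12 to 1.29 times the value of the other cells. The members with the highest log2 fold changes here, Psmf1, at 35.5, 39.7, 42.7 and 43.7 against 33.5, 38.9, 41.3 and 43.7 CPM, Psmd10, at 50.1, 67, 45.7 and 64.6 against 50.3, 75.1, 38.1 and 67.9 CPM, and Psmd12, at 90.6, 103, 76.5 and 105 against 83.4, 107, 75.7 and 111 CPM, lay between 0.00044 and 0.04 and did not pass. Without young pool A the count was 11, and without the pool block it was 0.

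In interferon cells the called members were immunoproteasome and activator genes. Interferon cells (430, 243, 297 and 600 cells) carried transcripts such as Ifit1, Isg15 and Irf7 and had 3 members higher and 0 lower than other non-cycling cells (edgeR, Benjamini-Hochberg adjusted p under 0.05), where 1.79% of 11764 genes were called, 1.14% higher and 0.655% lower. The 3 were Psmb9, Psmb8 and Psme1, whose promoters are printed above, and the median log2 fold change over the 47 members was 0.01. Psmb9 was at 229, 248, 174 and 254 CPM in interferon against 169, 221, 153 and 233 CPM in other cells in the 4 pools, Psmb8 at 542, 626, 391 and 665 against 465, 589.8, 350.5 and 620.4 CPM, and Psme1 at 428, 547, 337 and 604 against 385, 519, 306 and 559 CPM. Each was higher in each pool, although by little. The log2 fold changes were 0.23 ± 0.04 (SE) with an adjusted p of 0.00141 for Psmb9, 0.14 ± 0.03 (SE) with an adjusted p of 0.00204 for Psmb8 and 0.12 ± 0.03 (SE) with an adjusted p of 0.0119 for Psme1 (edgeR, Benjamini-Hochberg). Psme2 and Psmb10, the other members of the immune set, were at 161, 203, 124 and 216 against 139, 189.98, 123 and 193 CPM and at 196, 253, 164 and 274 against 173, 238, 148 and 256 CPM. They had log2 fold changes of 0.13 ± 0.04 (SE) with an adjusted p of 0.137 and 0.13 ± 0.04 (SE) with an adjusted p of 0.07595 respectively, and were higher in each pool without passing (edgeR, Benjamini-Hochberg).

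The constitutive counterparts Psmb5, at 205, 244, 151 and 255 against 211, 255, 155 and 266 CPM, Psmb6, at 291, 360, 212 and 320.2 against 277, 344, 220.1 and 329 CPM, and Psmb7, at 142, 176, 113 and 150.1 against 148, 167, 109 and 158 CPM, did not pass, with log2 fold changes of -0.05 ± 0.03 (SE) for Psmb5, 0.01 ± 0.03 (SE) for Psmb6 and -0.02 ± 0.04 (SE) for Psmb7. The ratio Psmb8/Psmb5 was 2.64, 2.56, 2.59 and 2.61 in interferon cells against 2.21, 2.31, 2.26 and 2.33 in the others, and Psmb9/Psmb6 was 0.788, 0.688, 0.819 and 0.793 against 0.611, 0.643, 0.693 and 0.7096. Each ratio of immunoproteasome to constitutive UMIs was higher in interferon cells of each pool. For Psmb8/Psmb5 the classes did not overlap. At the other end Psmg3, at 43.1, 44.4, 34.2 and 42.3 against 47.1, 52.1, 34.4 and 47.6 CPM, Psmg2, at 50.6, 67.2, 42.2 and 57.8 against 53.3, 68.6, 45.6 and 68.6 CPM, and Psmd14, at 71.9, 97.6, 76.7 and 93.1 against 75.9, 100.4, 81.2 and 108 CPM, had log2 fold changes of -0.14 ± 0.07 (SE), -0.14 ± 0.06 (SE) and -0.12 ± 0.05 (SE) and did not pass. Without young pool A, where Psmb9 differed most, 0 members were called, with adjusted p values of 0.119 for Psmb9 and 0.121 for Psmb8 (edgeR, Benjamini-Hochberg). The call for Psme1 was kept in only 6 of the 15 alternatives, and DESeq2 (adjusted p 0.0896) was among those that lost it. Without the pool block 0 members were called.

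Of 35 partner genes of the proteasome measured with it, from ubiquitin genes, receptors, assembly factors, regulators and antigen processing, 4 were called higher in interferon cells and 0 lower, all of them among the 10 antigen processing genes, beside 1.14% and 0.655% of all genes. Tap1, the head-to-head neighbour of Psmb9, was at 92.8, 73.1, 83.5 and 86.4 against 62.3, 57.7, 60.2 and 67.3 CPM, a log2 fold change of 0.44 ± 0.06 (SE) with an adjusted p of 3.36e-06 (edgeR, Benjamini-Hochberg). It was higher in each pool with no overlap of the classes. The class I genes H2-K1 and B2m had log2 fold changes of 0.11 ± 0.02 (SE) and 0.10 ± 0.02 (SE). In mitotic cells 7 of the 10 antigen processing genes were called lower and 1 higher, beside 24.3% and 25.6% of all genes, and the one called higher was Tap1, from 65, 59.2, 62.2 and 70.8 to 109, 85.7, 75.3 and 110.5 CPM, by a log2 fold change of 0.57 ± 0.08 (SE) with an adjusted p of 9.08e-05 (edgeR, Benjamini-Hochberg). Its neighbour Psmb9 had a log2 fold change of 0.53 ± 0.06 (SE) with an adjusted p of 2.01e-05 there (edgeR, Benjamini-Hochberg). Of 11 ubiquitin receptors and deubiquitinating enzymes 6 were called higher and 2 lower in mitotic cells, and Uchl5, which sits on the proteasome base, rose by 0.80 there and by 0.97 in replicating cells on the log2 scale. The transcription factor genes Nfe2l1 and Nfe2l2, of 5 regulators, fell in mitotic cells, with log2 fold changes of -0.51 and -0.45. With age edgeR called 0 of the 35 partner genes in whole pools, in non-cycling and in HSC-marker cells.

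**Figure D5:**
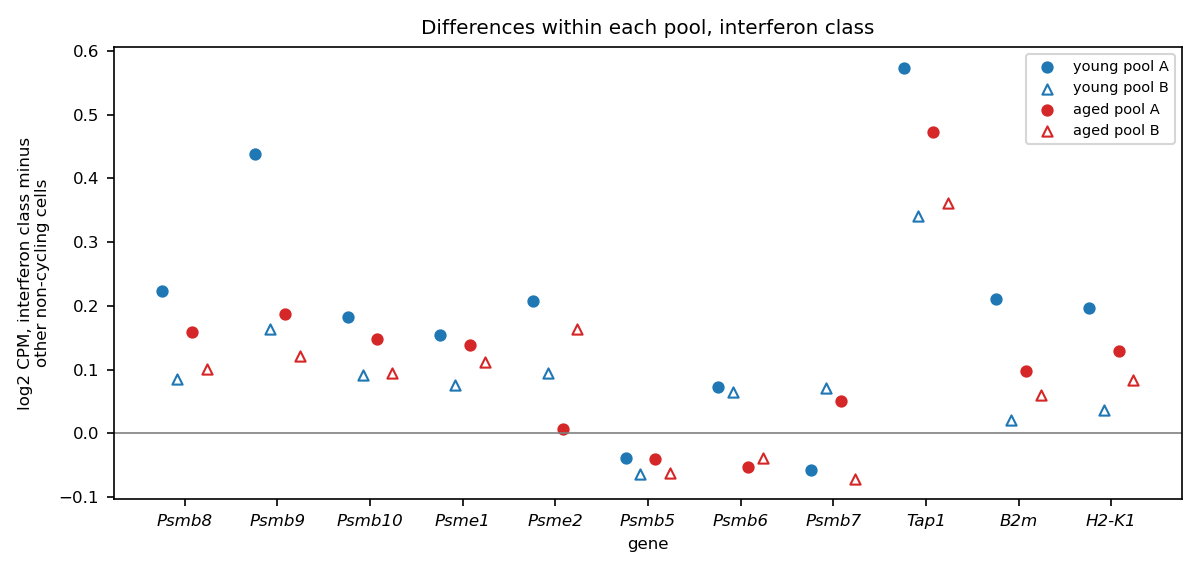
Difference in log2 CPM between interferon cells and the other non-cycling cells of the same pool, for the immunoproteasome genes and their activator, the constitutive catalytic genes and 3 antigen processing genes, with young pools in blue, aged pools in red, A pools as filled circles and B pools as open triangles. Psmb8, Psmb9, Psmb10 and Psme1 are above 0 in the 4 pools and Psmb5 below 0, while Tap1 lies between 0.34 and 0.57.

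Last, it was asked whether the age difference itself changed between cycling and non-cycling cells. edgeR's interaction term called 0 of 47 members (1 at an unadjusted p under 0.05, DESeq2 0), where 0.772% of 12946 genes were called, 0.309% lower. The members' median was -0.05 against -0.03 over all genes and changed sign with the scaling, to 0.0041 with RLE size factors. The member with the smallest p was Psmb10, at 184, 254, 125 and 239 CPM in cycling and 172, 235, 147 and 257 CPM in non-cycling cells in the 4 pools, which gave an interaction of -0.27 ± 0.09 (SE) with an adjusted p of 0.335 (edgeR, Benjamini-Hochberg). Psme4, which was higher in both aged pools, was at 12.6, 11.9, 18 and 14.7 CPM in cycling and 10.4, 9.85, 19.8 and 14.9 CPM in non-cycling cells and Psmg3 at 61, 65.4, 47.4 and 76.7 CPM in cycling and 45.8, 49.8, 33.6 and 45.9 CPM in non-cycling cells. Psme4 had an interaction of -0.35 ± 0.20 (SE) with an adjusted p of 0.702, and the largest in the other direction was that of Psmg3, 0.23 ± 0.13 (SE) with an adjusted p of 0.688 (edgeR, Benjamini-Hochberg). Psmd10, at 51.1, 67.5, 50.1 and 70.6 CPM in cycling and 49.7, 70.7, 42.5 and 65 CPM in non-cycling cells, Psme3, at 75.2, 76.6, 92.8 and 68.7 CPM in cycling and 51.7, 49.1, 52.5 and 43.2 CPM in non-cycling cells, and Psmd5, at 59.6, 74.4, 55.9 and 64.8 CPM in cycling and 48.6, 53.2, 55.6 and 52.9 CPM in non-cycling cells, followed with 0.18 ± 0.12 (SE), 0.16 ± 0.12 (SE) and -0.22 ± 0.13 (SE). Among the partner genes H2-D1, a class I gene, was called, at 1216, 1360.4, 1216 and 1606 CPM in cycling and 1288, 1560.4, 1884 and 2142 CPM in non-cycling cells. In non-cycling cells both aged pools were above both young pools, in cycling cells they overlapped, and the interaction was -0.38 ± 0.07 (SE) with an adjusted p of 0.0201 (edgeR, Benjamini-Hochberg). The call was lost in 9 of the 15 alternatives, DESeq2 and both other scalings among them.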

How the data were processed

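Pooled bone marrow HSPCs from 4 pools, each 1 library, were measured with 10x Genomics 3′ v2 kits. Per the submitters' processing notes and the study's methods, the authors made the deposited UMI counts with Cell Ranger 2.2 on mm10 (GRCm38), and the deposited counts are raw counts per gene and cell barcode. Sequencing depth in reads per cell differed crosswise between the pools (young pool A and aged pool B less deep than the other pools). Cells within 2 SD of their pool's mean log UMI count were kept, and no doublet caller was run. Class membership used counts of markers with at least 1 UMI. Counts were summed per pool, or per pool and class, and tested with edgeR 4.0.16 (R 4.3.3, filterByExpr, TMM, quasi-likelihood test, Benjamini-Hochberg at 0.05), with platform as a block for age and pool as a block for classes. DESeq2 1.42.0 was an alternative. The SE printed with a log2 fold change is its absolute value over the square root of edgeR's quasi-likelihood F statistic. It was not estimated separately and can be smaller than the p implies. The levels printed are TMM-scaled CPM, and the differences within single pools or platforms used a prior count of 1. The study's methods compare ages within each platform. Libraries of the same platform letter deviated together from their age means (r = 0.472 over 13555 genes), and the letter marks a shared batch per the methods. Intervals of ratios and shares are 95% intervals for counting error only, and the limit for a count of 0 is 3 counts. Replicates are pools of different mice.

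The members and lists were chosen with earlier results of these data known. Values per pool were given for Psmb5 to Psmb10, Psme1 and Psme2 in whole pools and in mitotic, replicating, erythroid and interferon cells, for any member called with age, and in each comparison for the 3 members with the largest log2 fold change in each direction (among those called where more than 3 were called). Partner genes were named where called with age or in interferon cells (1 of them is not reported here), and Uchl5, Nfe2l1 and Nfe2l2 and Tap1 in mitotic cells were named after their values were seen. On data simulated for the whole-pool age comparison (13555 genes, 200 changed), edgeR found 91 of the 103 genes with a 4-fold change, 23 of the 97 with a 2-fold change, and 4 that were unchanged. For mitotic cells these numbers were 91 of 92, 90 of 108 and 10 (11870 genes). Alternatives were DESeq2, other scalings, no filter on low counts, no block, each pool left out, all barcodes, other marker cut-offs, classes called on cells thinned to 3000 UMIs, and leaving out cells with at least 2 mature blood cell markers. With a pool left out, the age fits had no platform block. Promoter windows came from RefSeq and gene positions from the GENCODE annotation of GRCm38. Protein sequences were not used here.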

Additional observations from a re-analysis of the deposited data

Results flagged for a closer look

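Psmb11, the thymic core subunit that was not a member, had 7 UMIs in aged pool A, in 7 of 3328 cells (0.210%, exact 95% interval 0.0846 to 0.433%). The other pools had 0, which allows up to 0.0578% (young A), 0.134% (young B) and 0.0722% (aged B) of cells with a UMI.

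Among the members named in each comparison, 3 had a class difference that went one way in both young pools and the other way in both aged pools, and this difference between the ages was not tested. Members not named in a comparison were not screened, and some of them show the same pattern. Psmf1 in replicating against non-cycling cells had log2 differences of 0.06 and 0.04 in the young pools and of -0.19 and -0.22 in the aged pools, so that the mean of the aged pools was lower by -0.25. Psmb6 in interferon cells had 0.07 and 0.06 in the young and -0.05 and -0.04 in the aged pools, a difference of means of -0.11. Psmd12 in neutrophil cells had -0.10 and -0.35 in the young and 0.18 and 0.08 in the aged pools, a difference of means of 0.35, with 38 cells in the class of aged pool B.

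The age difference of H2-D1 was lower in cycling than in non-cycling cells by an interaction of -0.38 (edgeR, Benjamini-Hochberg adjusted p 0.0201), at -0.55 on platform A and -0.22 on platform B.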

How the results depend on the processing

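In the age comparisons 0 members were called under any alternative, while the count over all genes in whole pools, 275 with edgeR, was 543 with DESeq2, 74 with total counts only, 774 without the filter on low counts and 512 without mature-marker cells, and with a pool left out it lay between 0 (aged B) and 287 (young A), at 4 for aged A and 160 for young B. Fits with 1 pool fewer take the spread of the single remaining pool from the others. In whole pools, non-cycling and HSC-marker cells the age fits with 1 pool fewer also had no platform block, so platform and age are mixed in them. In these the members' median log2 fold change ran from -0.44 to 0.11 in whole pools, from -0.39 to 0.13 in non-cycling and from -0.30 to 0.21 in HSC-marker cells. It ran from -0.07 to 0.06 for age by cycling and from 0.33 to 0.38 for mitotic cells. The direction in whole pools changed with a pool left out for Psma8 (-0.083 to 0.48), Psmb5 (-0.66 to 0.14), Psmb6 (-0.57 to 0.040), Psmb8 (-0.66 to 0.19), Psmb9 (-0.50 to 0.19), Psmb10 (-0.53 to 0.29), Psme1 (-0.58 to 0.31) and Psme2 (-0.52 to 0.19), and with age in HSC-marker cells for Psmb6 (-0.45 to 0.14) and Psmb7 (-0.44 to 0.12).

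Without the replicate block the number of members called was 3 in mitotic, 2 in replicating and 0 in interferon, erythroid, neutrophil and HSC-marker cells, and 0 genes in all were called with age in whole pools. With classes called on thinned cells 27 members were called in mitotic, 6 in interferon and 30 in neutrophil cells. In interferon cells 1 was called with all barcodes. In erythroid cells 15 were called without the filter on low counts and 5 with 1 marker fewer, and in neutrophil cells 6 without mature-marker cells, 4 with 1 marker fewer and 27 with 1 marker more. Nkg7 is on both the neutrophil and the mature list, so leaving out mature-marker cells can remove neutrophil cells by a shared marker. With a pool left out the count ran from 0 to 3 in interferon, from 15 to 21 in erythroid, from 3 to 17 in neutrophil and from 11 to 21 in HSC-marker cells, where the lowest counts were those without young pool A. In mitotic and replicating cells it ran from 35 to 40 and from 32 to 35. The shares of all genes called under these alternatives are not given, here or above. The counts therefore do not show whether a shift was particular to the members. The cause of these shifts was not tested. In each class comparison no alternative gave fewer calls than leaving out the block, and in several classes the calls also moved with the marker cut-offs or with thinning.

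Single members that changed direction had small log2 fold changes. On thinned cells Psmf1 was at 0.079 in replicating cells and at -0.032 in HSC-marker cells, Psmb6 at -0.12 in interferon cells, Psmg4 at 0.0048 and Psmd12 at 0.14 in neutrophil cells and Psmd12 at -0.097 in HSC-marker cells. Psmb6 in interferon cells was at -0.014 without the filter on low counts and at -0.027 with 1 marker fewer or 1 marker more. In HSC-marker cells Psmf1 was at -0.0025 with 1 marker more, Psmd10 at -0.028 without the replicate block, -0.025 without mature-marker cells, -0.0092 with 1 marker fewer and -0.037 with 1 marker more, and Psmd12 at -0.0024 with DESeq2, with RLE size factors and with the strict list of mature markers (added after seeing the data), at -0.012 without the block, -0.015 without mature-marker cells, -0.054 with 1 marker fewer and -0.053 with 1 marker more. For age by cycling Psmd10 was at -0.00052 without mature-marker cells. With a pool left out, the sign changed for Psmd10 (-0.067 to 0.042) and Psmd12 (-0.045 to 0.037) in HSC-marker cells, Psme2 in erythroid cells (-0.010 to 0.20), Psmb6 (-0.0086 to 0.033) and Psmb7 (-0.037 to 0.012) in interferon cells, Psmd12 in neutrophil cells (-0.14 to 0.040) and Psmf1 in replicating cells (-0.096 to 0.014). Without the filter on low counts the median of all genes shifted to -0.17 in mitotic, -0.22 in replicating, -0.34 in erythroid and -0.19 in neutrophil cells.

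With 2 pools an age, the design limits what the age comparisons can show for changes the size of most of those here. Intervals cover counting error only, and UMIs say nothing of protein or of proteasome activity.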
